A study of Homo sapiens with 6 samples.

Results

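The genes described here encode the ligands of the fibroblast growth factor (FGF) and epidermal growth factor (EGF) families. They were chosen by name, as the protein-coding genes called FGF plus a number, with EGF, TGFA, HBEGF, AREG, EREG, BTC, EPGN and NRG1 to NRG4. The choice gave 33 of the 60664 genes in the deposited table, 22 of the FGF family and 11 of the EGF family. RNA-seq was made of 3 libraries of LNCaP cells (LNCaPE in the sample titles), a human prostate cancer line, that carried a stable short hairpin RNA against PDGFC (shPDGFC), and of 3 libraries of these cells with the hairpin labelled shNC. The design text describes the cells of both groups as an enzalutamide-resistant derivative, enzalutamide being an antiandrogen drug. Both groups grew in DMEM with 10% fetal bovine serum, no drug treatment is labelled, and how many hairpins or clones were used is not stated. The labels speak of pooled RNA and name no separate cultures, so a p-value sets a difference against the spread of these 6 libraries alone, and that spread may be technical.

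Most FGFs are secreted and bind FGF receptors together with heparan sulphate, while the FGF11 subfamily stays inside the cell and the FGF19 subfamily acts as hormones through klotho co-receptors. EGF family ligands are made as membrane-anchored precursors that proteases cut free. EGF, TGFA, AREG and EPGN bind the EGF receptor, HBEGF, BTC and EREG bind it and ERBB4, and the neuregulins bind ERBB3 or ERBB4. Both receptor families signal through RAS and the MAPK cascade. In the prostate, FGF7 and FGF10 are known as stromal signals to the epithelium. The series asks how PDGFC, a secreted platelet-derived growth factor, acts on the cells that make it, and the comparison made here asks which other growth factor genes these cells transcribe and whether their levels differed with the PDGFC hairpin.

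HBEGF, which had the largest rise among the tested ligands, and NRG4, which had the largest fall, are shown by the sequence around their RefSeq starts (GRCh38.p14, 250 bases before to 50 after the start, 5′ to 3′ on the strand of the gene). The HBEGF window is chr5:140346554-140346853 on the minus strand, and the NRG4 window is chr15:76012375-76012674 on the minus strand. Capitals mark 7 motifs searched on both strands, which were AP-1 (TGANTCA), CRE (TGACGTCA), ETS (CCGGAAG), the GC box (GGGCGG), TEAD (GGAATG), the TATA box (TATAAA) and the E box (CACGTG).
HBEGF: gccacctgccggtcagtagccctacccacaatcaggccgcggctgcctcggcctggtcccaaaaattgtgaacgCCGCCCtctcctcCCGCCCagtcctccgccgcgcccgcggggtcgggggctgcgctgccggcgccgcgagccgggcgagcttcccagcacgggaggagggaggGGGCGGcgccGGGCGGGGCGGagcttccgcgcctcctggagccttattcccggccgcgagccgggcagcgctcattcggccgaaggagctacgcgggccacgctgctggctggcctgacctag
NRG4: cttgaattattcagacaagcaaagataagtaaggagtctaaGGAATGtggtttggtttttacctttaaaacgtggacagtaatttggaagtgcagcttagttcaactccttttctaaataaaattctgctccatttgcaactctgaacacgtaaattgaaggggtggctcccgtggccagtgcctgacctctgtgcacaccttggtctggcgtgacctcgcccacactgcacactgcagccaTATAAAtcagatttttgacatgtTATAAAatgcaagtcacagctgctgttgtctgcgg
The HBEGF window was 75% G and C and held 5 GC boxes, of which the pair nearest the start share a G, and none of the other 6 motifs. The NRG4 window was 43.7% G and C and held 2 TATA boxes and 1 TEAD motif, with no GC box. The median over all 35116 windows was 58.7% G and C, and 45% of all windows held a GC box, 11.5% a TATA box and 14% a TEAD motif. AP-1, CRE, ETS and E box motifs occurred in 7.71%, 1.85%, 10.3% and 7.26% of all windows. Windows of 9 tested ligands were searched, all but FGF9 and NRG1. Among these EGF had the AP-1 motif, 17 bases before its start and overlapping a TEAD motif by 2 bases. These matches describe letters in a window and are not binding sites.

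Values are RPKM, reads per kilobase of gene scaled to the reads of the library, averaged as mean ± SD over 3 libraries. A gene was tested if it reached 1 RPKM in at least 3 of the 6 libraries, and it rose or fell if its adjusted p in limma was under 0.05. Differences are shPDGFC minus shNC on the log2(RPKM + 1) scale with the standard error (SE) of the fit, a scale that understates changes of low genes. The shPDGFC libraries held 17360455 to 20905911 reads and the shNC libraries 18258988 to 23930217. PDGFC had 3.0, 2.43 and 2.52 RPKM in shPDGFC and 8.19, 8.71 and 8.13 RPKM in shNC, and so fell (adjusted p = 0.00016). Of 12 luminal prostate markers 9 reached 1 RPKM in every library, but KLK3 and KLK2, which define androgen-responsive LNCaP cells, had 0 reads each over the shPDGFC libraries and 1 read each over the shNC libraries. The summed luminal markers lay at 188 to 201 RPKM in shPDGFC and 173 to 176 RPKM in shNC, and 7 fibroblast markers at 14.9 to 15.4 and 18.6 to 18.9 RPKM, with 0 reads for THY1. Most of the fibroblast sum was LUM (7.96 and 11.3 RPKM in shPDGFC and shNC) and COL1A1 (5.14 and 6.01 RPKM). COL3A1 went the other way (1.46 and 0.883 RPKM). The summed level of 4 leukocyte markers was 0.535 to 0.679 RPKM in shPDGFC and 0.401 to 0.446 RPKM in shNC, that of 4 basal markers 0.0490 to 0.126 and 0.101 to 0.116, of 4 endothelial markers 0.701 to 0.732 and 0.770 to 0.920, and of 6 neuroendocrine markers 42.4 to 44.7 and 41.8 to 44.6 RPKM. Mitochondrial reads were 4.2% to 4.68% in shPDGFC and 3.75% to 4.08% in shNC. The part of these shifts in the results below was not tested.

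Of the 33 ligands, 11 passed the filter and were tested, namely FGF2, FGF5, FGF9, FGF12, EGF, TGFA, HBEGF and the neuregulins NRG1 to NRG4. Among these 2 rose (HBEGF and FGF9) and 3 fell (NRG4, TGFA and FGF2). That is 45.5% of the tested ligands, where 29.8% of all 15337 tested genes were called, 14.2% higher and 15.6% lower. The median difference was -0.044 over the tested ligands and -0.013 over all tested genes, and the median size of a difference without its sign was 0.14 and 0.10. RNA of whole cultures cannot tell apart fewer cells with a transcript and less of it per cell. The other 22 ligands stayed below the filter, and 2 of them, FGF4 and FGF16, had no read in any library. A level of 3 reads was 0.173 CPM in the shallowest library, the limit that 0 reads allow there for counting error alone.

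HBEGF, a heparin-binding ligand of the EGF receptor and ERBB4 that also serves as the diphtheria toxin receptor, had 8.65, 8.80 and 7.82 RPKM in shPDGFC and 5.94, 5.81 and 5.84 RPKM in shNC. Every shPDGFC library lay above every shNC library. Its mean rose to 8.42 ± 0.528 RPKM, against 5.86 ± 0.0681 RPKM in shNC (SD, n = 3 each), a ratio of 1.44 on 1159 and 901 reads. The log2 difference was 0.46 ± 0.047 (SE; limma, adjusted p = 0.001). It was called under each of the 14 alternative settings run, where the adjusted p reached at most 0.01. The gene lies on chromosome 5 (GRCh38, 140332843 to 140346631), and no exon of another gene overlaps it in GENCODE version 29.

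TGFA, transforming growth factor alpha, a ligand of the EGF receptor, moved the other way. It had 1.23, 1.17 and 1.20 RPKM in shPDGFC and 1.46, 1.92 and 1.69 RPKM in shNC. The groups did not overlap, and the spread was wider in shNC. TGFA fell (log2 difference -0.29 ± 0.084 SE; limma, adjusted p = 0.039), with a ratio of the means of 0.71. This call is fragile, since it was lost without shNC replicate 2 (adjusted p = 0.12) or 3 (0.10) and without shPDGFC replicate 1, 2 or 3 (0.075, 0.090 and 0.092), and with no filter (0.12).

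EGF itself had 1.33, 1.44 and 1.39 RPKM in shPDGFC and 1.20, 1.11 and 1.15 RPKM in shNC, without overlap. The difference of 0.15 ± 0.072 (SE) missed the threshold (limma, adjusted p = 0.16). With limma-voom on the whole reads recovered from the RPKM steps it passed, at 0.26 on the log2 scale (adjusted p = 0.024). No overlap between the groups was seen in 46.8% of all tested genes, 21.7% higher and 25.1% lower in shPDGFC.

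The remaining EGF receptor ligands were scarce. AREG, amphiregulin, had 0.280, 0.426 and 0.443 RPKM in shPDGFC and 0.542, 0.355 and 0.635 RPKM in shNC, on 28 and 42 reads. BTC, betacellulin, had 19 reads over the shPDGFC libraries and 23 over the shNC libraries, EPGN, epigen, had 5 and 9, and EREG, epiregulin, had 2 and 1. The 7 genes summed to 11.6, 12.0 and 11 RPKM in shPDGFC and 9.33, 9.38 and 9.50 RPKM in shNC. HBEGF made up 72.9 ± 1.83% of that sum in shPDGFC and 62.3 ± 1.13% in shNC (SD, n = 3 each). Without HBEGF the other 6 genes summed to less in shPDGFC, at 3.13 ± 0.136 RPKM against 3.54 ± 0.133 RPKM in shNC. In RPKM the order also differed, with EGF above TGFA in every shPDGFC library and TGFA above EGF in every shNC library. That order rests on the authors' gene lengths as implied by the values. These were 1.04 times the GENCODE exon length for EGF and 0.83 times for TGFA, so the order could change with other lengths. It also rests on the fragile call of TGFA and on a difference of EGF that was not called.

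**Figure D1:**
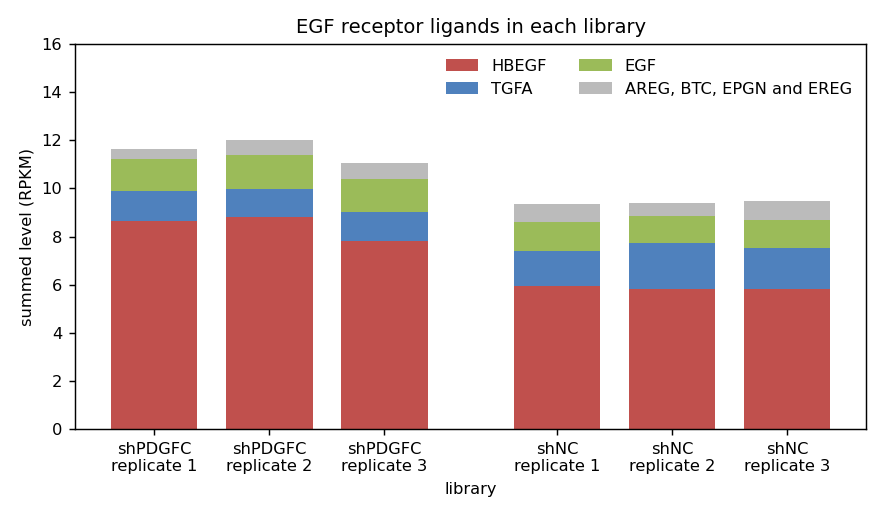
Summed level of the 7 EGF receptor ligand genes in RPKM (vertical axis) in each library (horizontal axis), with the parts of HBEGF, TGFA, EGF and the other 4 genes stacked. The shPDGFC bars reach 11 to 12.0 RPKM and the shNC bars 9.33 to 9.50 RPKM, and HBEGF is the largest part of all 6 bars.

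All 4 neuregulin genes were expressed. NRG4, a ligand of ERBB4, had 1.90, 1.77 and 1.92 RPKM in shPDGFC and 2.91, 2.78 and 2.67 RPKM in shNC, so that every shPDGFC library lay below every shNC library. Its mean fell to 1.86 ± 0.0801 RPKM, against 2.79 ± 0.122 RPKM in shNC (SD, n = 3 each), a ratio of 0.669 on 349 and 584 reads. The log2 difference was -0.40 ± 0.059 (SE; limma, adjusted p = 0.0032), and it was called under all 13 alternative settings that tested it. NRG4 (chromosome 15, 75935969 to 76059795) shares 1917 bases of exon with FBXO22, an F-box gene on the opposite strand. FBXO22 also fell, with 10.3 ± 0.256 RPKM in shPDGFC and 11.8 ± 0.293 RPKM in shNC (ratio 0.878; limma, adjusted p = 0.0086). The strand setting of the counts is unknown and such reads could go to either gene, so the level of NRG4 is uncertain. The part of shared reads in its fall was not tested.

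The other neuregulins differed less. NRG2 had 2.06, 1.93 and 2.12 RPKM in shPDGFC and 2.12, 2.24 and 2.23 RPKM in shNC, a difference of -0.076 ± 0.060 (SE; limma, adjusted p = 0.38). NRG3, a ligand of ERBB4, had 1.59, 1.32 and 1.5 RPKM in shPDGFC and 1.64, 1.60 and 1.70 RPKM in shNC, a difference of -0.10 ± 0.073 (SE; limma, adjusted p = 0.33). For NRG2 and NRG3 the groups did not overlap (the shared 2.12 RPKM of NRG2 is a matter of rounding), yet neither passed. NRG1, a ligand of ERBB3 and ERBB4, had 1.35, 1.42 and 1.42 RPKM in shPDGFC and 1.42, 1.37 and 1.40 RPKM in shNC, with a difference of 0.0015 ± 0.068 (SE; limma, adjusted p = 0.99). The 4 neuregulins summed to 6.90, 6.44 and 6.95 RPKM in shPDGFC and 8.10, 7.98 and 8.0 RPKM in shNC, and NRG4 made up 27.6 ± 0.0354% and 34.7 ± 1.31% of these sums. The sums and shares rest on the implied gene lengths. Relative to the GENCODE exon length these ran from 0.524 times for NRG1 to 0.867 times for NRG2, with 0.638 times for NRG4.

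**Figure D2:**
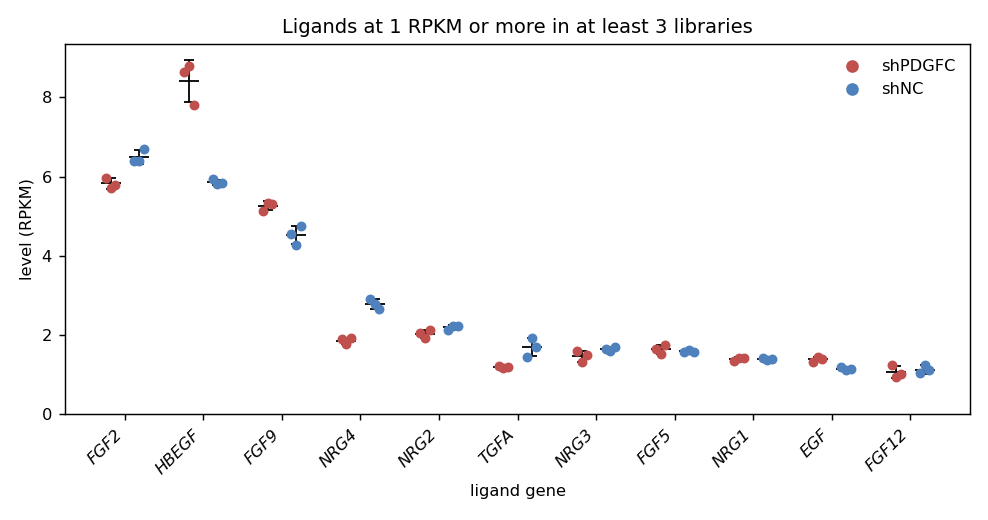
Level in RPKM (vertical axis) of the 11 tested ligand genes (horizontal axis, ordered by the shNC mean), with a point for each library, the mean as a bar and the SD as whiskers (n = 3 per group). HBEGF lies between 7.82 and 8.80 RPKM in shPDGFC, above its 5.81 to 5.94 RPKM in shNC, and NRG4 lies lower in shPDGFC than in shNC.

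Among the secreted FGFs, FGF2 and FGF9 gave most of the summed level, 72.8 ± 1.48% in shPDGFC and 70.5 ± 1.89% in shNC. FGF9, which signals to FGF receptors of epithelium and mesenchyme, had 5.14, 5.34 and 5.32 RPKM in shPDGFC and 4.56, 4.28 and 4.75 RPKM in shNC. Every shPDGFC library was higher. It rose by 0.18 ± 0.047 (SE; limma, adjusted p = 0.025), a ratio of 1.16 on 1395 and 1342 reads. The call was lost without shNC replicate 1 (adjusted p = 0.062) or 2 (0.068) and without shPDGFC replicate 2 (0.067) or 3 (0.070), and with no filter (0.060).

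FGF2, basic FGF, a broadly acting growth factor that lacks a classical signal peptide, had 5.98, 5.72 and 5.78 RPKM in shPDGFC and 6.40, 6.40 and 6.71 RPKM in shNC. Every shPDGFC library was lower, and the gene fell (log2 difference -0.14 ± 0.038 SE; limma, adjusted p = 0.034). The ratio of the means was 0.897 on 2261 and 2821 reads. The call was lost without any of the 3 shNC libraries (adjusted p = 0.070, 0.064 and 0.11), without shPDGFC replicate 2 or 3 (0.088 each) and with median-ratio scaling (0.064) and with no filter (0.068). FGF2 (chromosome 4, 122826708 to 122898236) shares 804 bases of exon with NUDT6 on the opposite strand. NUDT6, a Nudix hydrolase gene known as the FGF2 antisense partner, had 7.75 ± 0.812 RPKM in shPDGFC and 8.41 ± 0.295 RPKM in shNC (limma, adjusted p = 0.27), so part of the reads may be shared.

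FGF5 and FGF12 were the other FGFs tested. FGF5, known as an inhibitor of hair growth, had 1.64, 1.53 and 1.74 RPKM in shPDGFC and 1.58, 1.62 and 1.58 RPKM in shNC (difference 0.023 ± 0.067 SE; limma, adjusted p = 0.83). FGF12, an intracellular partner of voltage-gated sodium channels, had 1.25, 0.938 and 1.03 RPKM in shPDGFC and 1.04, 1.26 and 1.11 RPKM in shNC (difference -0.044 ± 0.093 SE; limma, adjusted p = 0.75). The groups overlapped for both genes. FGF12 is the tested member nearest the filter, and FGF20, whose highest library had 0.886 RPKM, lay nearest below it.

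**Figure D3:**
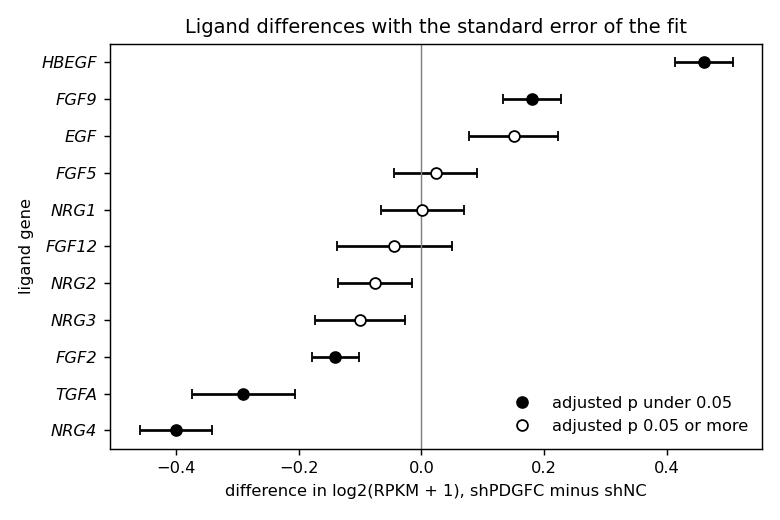
Difference in log2(RPKM + 1), shPDGFC minus shNC (horizontal axis), of the 11 tested ligand genes (vertical axis), with bars for the SE of the fit and filled points for an adjusted p under 0.05. The 5 filled points run from NRG4 at -0.40 to HBEGF at 0.46, and the 6 open points lie between -0.10 and 0.15.

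By level per length, the order in shPDGFC was HBEGF (8.42 RPKM), FGF2 (5.83), FGF9 (5.27), NRG2 (2.03), NRG4 (1.86), FGF5 (1.64), NRG3 (1.47), NRG1 (1.40), EGF (1.39), TGFA (1.20) and FGF12 (1.07 RPKM). In shNC it was FGF2 (6.50 RPKM), HBEGF (5.86), FGF9 (4.53), NRG4 (2.79), NRG2 (2.20), TGFA (1.69), NRG3 (1.65), FGF5 (1.59), NRG1 (1.39), EGF (1.15) and FGF12 (1.13 RPKM). HBEGF and FGF2 changed places at the top, and their libraries did not overlap in either group. In shPDGFC the ranges of NRG3 overlapped those of FGF5, NRG1 and EGF, the range of NRG1 overlapped that of EGF, and the range of TGFA that of FGF12, so these neighbours are not separated. In shNC the ranges overlapped among TGFA, NRG3 and FGF5 and between EGF and FGF12. Levels of different genes rest on the authors' gene lengths. Those implied by the values were within 10% of the GENCODE version 29 exon length for 9 of 31 ligands. For HBEGF the implied length was 0.781 times and for FGF2 0.982 times that length. For NRG4 it was 0.638 times and for NRG1 0.524 times, so the order could change with other lengths.

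Ligands below the filter were read from the recovered reads, with limma-voom on genes with at least 10 reads over the 6 libraries, a fit chosen after seeing the data. Of 22 such ligands 15 had enough reads, and 1 was lower and 0 were higher in shPDGFC (limma-voom, adjusted p under 0.05). At an unadjusted p under 0.05 there were 3 (FGF10, FGF1 and FGF20), each lower in shPDGFC. The share of all low genes at that unadjusted threshold is not given, so nothing is drawn from this count. At an adjusted p under 0.05, 5.4% of all genes below the filter with at least 10 reads were called, 3.86% lower and 1.54% higher. That fit called 23.8% of all 24546 genes it tested. Of the FGF7 subfamily, FGF10 had 0.254, 0.446 and 0.398 RPKM in shPDGFC and 0.567, 0.618 and 0.613 RPKM in shNC, on 27, 57 and 49 reads against 83, 69 and 86. Every shPDGFC library lay below every shNC library, and the log2 difference was -0.71 ± 0.174 (SE; limma-voom, adjusted p = 0.0029). It was called without any single library (adjusted p at most 0.038), but on the log2(RPKM + 1) scale with a filter at 0.1 RPKM it was not (-0.23, adjusted p = 0.083). FGF7 had 50 and 45 reads and shares sequence with several pseudogene copies. FGF22 had 3 and 4 reads, and FGF3 had 1 and 0.

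FGF1, acidic FGF, had 4, 8 and 8 reads in shPDGFC and 15, 13 and 15 reads in shNC. The groups did not overlap, and the log2 difference was -0.92 ± 0.369 (SE; limma-voom, adjusted p = 0.071). FGF20, of the FGF9 subfamily, had 18, 16 and 15 reads in shPDGFC and 39, 18 and 27 reads in shNC (limma-voom, adjusted p = 0.12). Of the endocrine FGFs, FGF23, the phosphate-lowering hormone, had 8, 8 and 7 reads in shPDGFC and 12 in each shNC library (limma-voom, adjusted p = 0.41). FGF19, a bile acid regulator, had 52 reads in shPDGFC and 52 in shNC, and FGF21, a metabolic hormone, had 1 and 1.

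The FGF8 subfamily was barely detected, with 10 and 15 reads for FGF8, 8 and 8 for FGF17 and 17 and 14 for FGF18 in shPDGFC and shNC. FGF6 had 13 and 10 reads. Of the intracellular FGFs, FGF13 had 0.409, 0.327 and 0.282 RPKM in shPDGFC and 0.350, 0.311 and 0.294 RPKM in shNC, a low level per length on 384 and 407 reads over a long gene. FGF11 had 6, 9 and 9 reads in shPDGFC and 6, 6 and 7 in shNC, and shares exon sequence with an unnamed gene on the opposite strand (13 and 32 reads), while FGF14 had 2 and 1 in all. Among the 15 genes, the groups did not overlap for FGF1, FGF10 and FGF23, all lower in shPDGFC, and for FGF11, which was higher. Of all genes in that range 12% did not overlap and were lower, and 6.08% did not overlap and were higher.

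**Figure D4:**
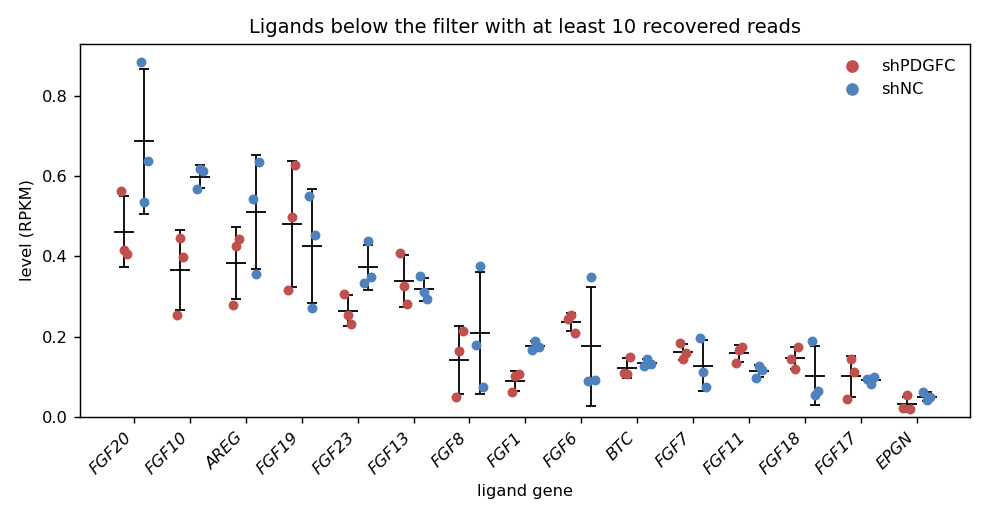
Level in RPKM (vertical axis) of the 15 ligand genes below the filter with at least 10 recovered reads (horizontal axis, ordered by the shNC mean), with a point for each library, the mean as a bar and the SD as whiskers (n = 3 per group). FGF10 lies between 0.254 and 0.446 RPKM in shPDGFC, below its 0.567 to 0.618 RPKM in shNC, while most other genes overlap between the groups.

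The receptors of these ligands were expressed. Among 11 receptor and co-receptor genes 9 could be tested, and 1 rose while 1 fell (22.2% called, beside 29.8% of all tested genes). The median difference was 0.03. FGFR3, a receptor of FGF1 and FGF9, had 18.3, 18 and 18.6 RPKM in shPDGFC and 16.7, 15.9 and 16.1 RPKM in shNC, and rose by 0.16 ± 0.030 (SE; limma, adjusted p = 0.0067). EGFR, the receptor of HBEGF, TGFA and EGF, had 6.40, 6.77 and 6.58 RPKM in shPDGFC and 7.11, 7.32 and 7.29 RPKM in shNC. It fell (log2 difference -0.12 ± 0.036 SE; limma, adjusted p = 0.042). The EGFR call was lost without shNC replicate 1, 2 or 3 (adjusted p = 0.076, 0.11 and 0.12) or shPDGFC replicate 1 or 3 (0.11 and 0.096), with median-ratio scaling (0.076) and with no filter (0.078).

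FGFR1 had 9.13 ± 0.260 RPKM in shPDGFC and 8.30 ± 0.437 RPKM in shNC (SD, n = 3 each; limma, adjusted p = 0.070). It passed with median-ratio scaling (adjusted p = 0.034), with limma-voom (0.015) and without shNC replicate 1 (0.040). FGFR2 (5.66 and 5.53 RPKM in shPDGFC and shNC), FGFR4 (4.35 and 4.56) and FGFRL1 (11.4 and 10.8), a receptor without a kinase domain, did not pass, though FGFRL1 passed without shPDGFC replicate 3 (adjusted p = 0.047). Neither did ERBB2 (14 and 14.6 RPKM), which binds no ligand of its own and pairs with other ERBB receptors, ERBB3 (6.59 and 6.41) or ERBB4 (1.39 and 1.38), the receptor of NRG4. The klotho co-receptors KL (0.0296 and 0.0250 RPKM) and KLB (0.0482 and 0.0791 RPKM) were near 0. FGFR1 shares exon sequence with LETM2, and ERBB2 with MIEN1 and PGAP3, each on the opposite strand.

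Of 40 genes that shed, bind or hold these ligands 34 were tested, of which 7 rose and 3 fell. That is 29.4% called, close to the 29.8% of all tested genes, with a median difference of 0.052. Without ADAM12, which passed the filter only through shPDGFC and was not called, the share and median were 30.3% and 0.042. ADAM9, a membrane protease, rose to 23.2 ± 0.763 RPKM, against 19.0 ± 0.628 RPKM in shNC (SD, n = 3 each; limma, adjusted p = 0.0022). The heparan sulphate carriers SDC2 (27.1 and 22.5 RPKM in shPDGFC and shNC) and SDC4 (17.2 and 14.3 RPKM) also rose, as did HS6ST2, a heparan sulphate sulphotransferase (42.9 and 39.3 RPKM; limma, adjusted p = 0.0019, 0.0040 and 0.014 in that order). SDC1 (11.4 and 12.6 RPKM) and GPC6 (5.26 and 6.41 RPKM), also carriers of heparan sulphate, fell (limma, adjusted p = 0.016 and 0.0093). BACE1, a protease that cleaves NRG1, fell to 5.76 ± 0.233 RPKM, against 7.44 ± 0.332 RPKM in shNC (SD, n = 3 each; limma, adjusted p = 0.0030). BACE1 shares exon sequence with BACE1-AS on the opposite strand (26.1 and 24.2 RPKM), so its level is uncertain. The call of SDC1 did not hold when shNC replicate 1 or 2 was left out (adjusted p = 0.057 and 0.053), nor that of HS6ST2 without shNC replicate 1 (0.050). ADAM17, the main sheddase of HBEGF and TGFA, named after its values were seen, had 20.9 ± 0.348 and 21.1 ± 0.0427 RPKM (limma, adjusted p = 0.66). ADAM17 shares exon sequence with IAH1 on the opposite strand. Also named after their values were seen are RHBDF1, ADAM10 and RHBDF2 of the same list. RHBDF1 rose (4.52 and 3.81 RPKM in shPDGFC and shNC; limma, adjusted p = 0.021). ADAM10 (9.24 and 8.49 RPKM) did not pass (limma, adjusted p = 0.064), but did in limma-voom of genes with at least 10 reads (0.0096). RHBDF2 was lower without passing (3.12 and 3.44 RPKM; limma, adjusted p = 0.16).

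Of 22 genes that restrain these receptors 20 were tested, of which 8 rose and 4 fell (60% called, beside 29.8% of all tested genes, median difference 0.084). Without SPRY4, which passed the filter only through shPDGFC and so had to differ, 7 of 19 rose and 4 fell (57.9% called, median difference 0.082). The list was chosen with earlier results of these data known, so its share beside that of all genes is descriptive only. ERRFI1, an inhibitor of the EGF receptor kinase, had 19.8 ± 0.353 RPKM in shPDGFC and 14.4 ± 0.403 RPKM in shNC (SD, n = 3 each), and rose by 0.43 ± 0.030 (SE; limma, adjusted p = 0.00035). NEDD4, a ubiquitin ligase, rose to 7.77 ± 0.139 RPKM, against 5.91 ± 0.132 RPKM in shNC (SD, n = 3 each; limma, adjusted p = 0.0010). DUSP6, an ERK phosphatase, rose by 0.69 ± 0.077 (SE; limma, adjusted p = 0.0013). Its ratio was 2.06 (2.86 and 1.39 RPKM in shPDGFC and shNC). SPRY4, a Sprouty inhibitor, had 1.93 RPKM in shPDGFC and 0.526 RPKM in shNC. The way it passed the filter fixes its direction, so no test is given. SPRY3 (2.25 and 3.21 RPKM in shPDGFC and shNC), GRB14, an adaptor (4.77 and 5.54), IL17RD, an FGF antagonist (2.41 and 2.97), and CBL, a ubiquitin ligase of the EGF receptor (16.2 and 17.4), fell (limma, adjusted p = 0.012, 0.013, 0.025 and 0.035 in that order). The falls of IL17RD and CBL were each lost without any of 5 of the 6 libraries (adjusted p up to 0.075 and 0.10), and that of GRB14 without shNC replicate 3 (0.052). CBL shares exon sequence with MCAM on the opposite strand.

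**Figure D5:**
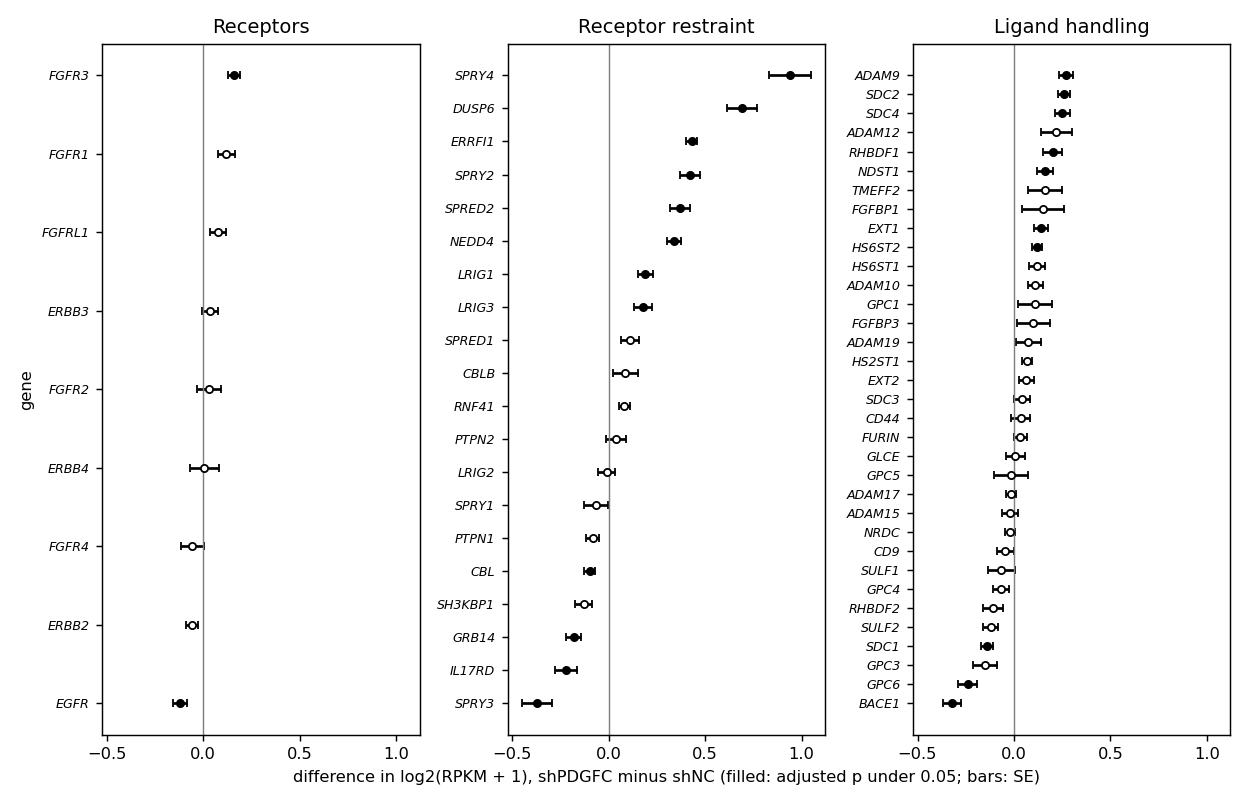
Difference in log2(RPKM + 1), shPDGFC minus shNC (horizontal axes), of the tested receptor, receptor restraint and ligand handling genes (vertical axes), with bars for the SE of the fit and filled points for an adjusted p under 0.05. Receptors lie between EGFR at -0.12 and FGFR3 at 0.16. SPRY4, drawn at 0.94, passed the filter only through shPDGFC, which fixes its direction.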

How the data were processed

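Per the labels' protocols, RNA came from Trizol extraction and libraries from an Ion Torrent total RNA kit, read from a single end. The authors deposited RPKM, read counts scaled to gene length and library size, as the values themselves show, since the header gives no unit. In each of 37040 genes with any value, the 6 libraries stood in whole-number ratios once multiplied by their totals (tolerance 1e-12). These steps returned 99.45% to 99.46% of each library's reads and the implied gene lengths, with 521 genes needing a common factor. No aligner, counter, annotation or strand setting is stated. GRCm38 and mm10 appear in the submitters' processing notes, but every one of the 60664 identifiers is human. Gene positions came from GENCODE version 29 (GRCh38) by Ensembl ID, and promoter sequences from RefSeq.

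Genes with at least 1 RPKM in at least 3 libraries (15337) entered a limma fit (version 3.58.1, R 4.3.3) of log2(RPKM + 1) with its intensity trend, without a block, and p-values were Benjamini-Hochberg adjusted over all of them. The procedure was tested on simulated data. Same-group libraries differed by a chi-square per degree of freedom of 1.462 to 2.566, above sampling noise. Alternatives were a pseudocount of 0.1, other filters, 2 other scalings, limma-voom on recovered reads, a replicate block and leaving out each library. Every ligand and tested receptor was named, with up to 4 called genes per direction of each other list and some of the partners that overlap them. Some ligand handling genes beyond these were named after their values were seen. Members and lists were chosen with earlier results of these data known.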

Additional observations from a re-analysis of the deposited data

How the results depend on the processing

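HBEGF, NRG4, FGFR3 and PDGFC kept their direction and their call under every alternative that tested them, whereas FGF2, FGF9 and TGFA kept their direction and lost their call under some of them. The number of ligands called was 5 and became 2 with no filter, 3 with a filter at 0.1 RPKM, 3 with a filter at 3 RPKM (of 3 ligands then tested) and 2 to 4 without a single library. The number of receptor genes called was 2 and became 1 with no filter, 1 with a filter at 0.1 RPKM and 1 to 2 without a single library. The number of ligand handling genes called was 10, and 6 to 10 without a single library, the lowest without shNC replicate 1. Over all genes the count of 4571 ranged from 3192 to 5773.

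Same-numbered libraries did not deviate together (correlation -0.101, -0.111 and -0.018 over the 3 pairs), and no library correlated best with its own number. With the replicate block, 2 ligands, 1 receptor, 9 ligand handling and 9 restraint genes were called, and 3469 genes in all.

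With a pseudocount of 0.1 the differences of EGF and TGFA were 0.25 and -0.45. Differences near 0 changed sign for NRG1 (-0.0064) and ERBB4 (-0.0038) with upper-quartile scaling. Without a single library they ran from -0.0059 to 0.052 for FGF5, -0.10 to 0.0029 for FGF12, -0.0064 to 0.015 for NRG1, -0.026 to 0.069 for FGFR2 and -0.016 to 0.038 for ERBB4. In the limma-voom fit of low genes they ran from -0.82 to 0.16 for FGF8, -0.22 to 0.41 for FGF17, -0.077 to 0.40 for FGF19 and -0.064 to 0.19 for FGF13. None of these genes was called. Read number limits what can be said of the ligands below the filter.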

Other observations

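FGF13-AS1 and FGFBP2 are named after their values were seen. FGF13-AS1, a noncoding gene that shares 167 bases of exon with FGF13 on the opposite strand, had 7, 4 and 3 reads in shPDGFC and 12, 12 and 16 reads in shNC (limma-voom, adjusted p = 0.021). The groups did not overlap, while those of FGF13 did. FGFBP2, of the FGF-binding protein family, had 0 reads in each shPDGFC library and 4, 3 and 6 reads in shNC. It had enough reads for the limma-voom fit only through shNC, which fixes its direction, so no test is given. It shares 166 bases of exon with PROM1 on the same strand, which had 28 and 27 reads in shPDGFC and shNC.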
